A study of Arabidopsis arenosa x Arabidopsis thaliana and Arabidopsis thaliana and Arabidopsis arenosa with 5 samples.

Results

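The genes of proline synthesis and proline degradation were followed through the leaf transcriptomes of 5 tetraploid groups of Arabidopsis. They comprise 6 loci, taken by their locus identifiers: the synthesis genes P5CS1 (AT2G39800), P5CS2 (AT3G55610) and P5CR (AT5G14800), and the degradation genes ProDH1 (AT3G30775), ProDH2 (AT5G38710) and P5CDH (AT5G62530). All 6, with 9 transcripts, stood among the 32313 genes listed for the parents. Of the genes listed for the allotetraploids, 5 of 11017 in the F1, 5 of 10890 in F8 and 5 of 10847 in A. suecica were members, and ProDH2 was not listed there. Every listed F1 transcript had both alleles above 0 in each column, and the listed totals were all above 2 RPKM in F8 and in A. suecica. What else decided listing is not stated: the bZIP factor gene bZIP2, with 12.1 to 31.3 RPKM over the 6 parental libraries, was listed in no allotetraploid. The genes were chosen for their place in the pathway with earlier results of these data known, so their values are a description of these libraries. Adjusted p-values, taken over all genes, set each difference against the spread between replicates and are no independent support for the choice.

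The plants were an F1 allotetraploid, resynthesized and given here in 3 replicate columns, an allotetraploid of generation F8 with 1 library, and Arabidopsis suecica, a natural allotetraploid that combines A. thaliana and A. arenosa genomes, also with 1 library. The parental species were autotetraploid A. arenosa of the accession Care-1 and autotetraploid A. thaliana of the accession Landsberg erecta, with 3 replicate columns each. Messenger RNA came from rosette leaves taken before bolting, with 16 h of light at 22 °C and 8 h of dark at 20 °C. The plants were 6 to 7 weeks old in all groups except A. thaliana, which was 3 to 4 weeks old, so age and genotype cannot be told apart in any comparison with A. thaliana. No group received a treatment in the labels. The labels do not say whether the columns of a group came from separate plants, and the p-values therefore measure only the spread between columns. In bulk leaf RNA, fewer cells of a type and less RNA per cell cannot be told apart.

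Plants make proline mainly from glutamate. Pyrroline-5-carboxylate (P5C) synthetase, encoded by P5CS1 and P5CS2, carries out the rate-limiting step from glutamate to P5C, and P5C reductase (P5CR) converts P5C to proline. In mitochondria, proline dehydrogenase (ProDH1 and ProDH2) oxidizes proline back to P5C, and P5C dehydrogenase (P5CDH) returns it to glutamate. Proline builds up in leaves under drought and salt, when P5CS1 is known to be induced and ProDH1 to be repressed. ProDH1 is also known as ERD5 and is induced by proline and on release from water deficit.

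The genes differ in whether the stretch before the transcription start carries ACTCAT, the element through which S1-group bZIP factors are known to activate ProDH1 in response to proline and low osmolarity. The 250 bases before the annotated start of P5CS1, ProDH1 and P5CDH are shown because these are the genes whose levels stood apart in A. suecica. They were read from the RefSeq genome TAIR10.1 at chr2:16603320-16603569, chr3:12451557-12451806 and chr5:25103313-25103562, all on the minus strand, and are written 5′ to 3′ with ACTCAT, or its reverse complement ATGAGT, in capitals.
P5CS1: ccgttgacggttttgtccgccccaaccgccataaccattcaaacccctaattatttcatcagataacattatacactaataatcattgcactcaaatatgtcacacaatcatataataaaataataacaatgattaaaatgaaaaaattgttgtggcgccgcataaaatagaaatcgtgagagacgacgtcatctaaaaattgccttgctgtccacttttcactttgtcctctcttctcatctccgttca
ProDH1: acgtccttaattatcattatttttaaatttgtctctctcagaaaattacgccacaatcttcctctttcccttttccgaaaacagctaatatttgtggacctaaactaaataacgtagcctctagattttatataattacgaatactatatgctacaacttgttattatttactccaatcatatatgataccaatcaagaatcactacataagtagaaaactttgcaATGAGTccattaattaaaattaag
P5CDH: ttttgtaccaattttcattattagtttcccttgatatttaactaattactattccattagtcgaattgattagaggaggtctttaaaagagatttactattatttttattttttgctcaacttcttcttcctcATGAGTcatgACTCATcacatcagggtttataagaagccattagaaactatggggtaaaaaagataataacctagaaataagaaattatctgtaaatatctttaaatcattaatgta
Both strands were searched for ACTCAT and for ACGTG, the core of the abscisic acid response element, and no match of one motif overlapped a match of the other in these windows. ProDH1 held 1 ACTCAT match, 24 bases before the start on the strand opposite to the gene. P5CDH held 2, at 117 bases before the start on the opposite strand and at 107 bases on the strand of the gene. P5CS1 held neither motif in this window. Of the other members, P5CR held 1 ACGTG, 51 bases before the start, and P5CS2 and ProDH2 held neither. ACTCAT stood in 12.3% and ACGTG in 22.9% of the 27443 promoters of the same length, so both are common and a match is only a description. The sequence is that of an A. thaliana reference, and the A. arenosa alleles were not analysed here.

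Levels are in RPKM, the reads of a transcript per kilobase of its length and relative to the mapped reads of its library, and depth is unknown. The 6 leaf markers were listed in every library, with summed levels of 6001 to 30395 RPKM in the F1, 39762 RPKM in F8, 34938 RPKM in A. suecica, 23736 to 31713 RPKM in A. arenosa and 6869 to 47569 RPKM in A. thaliana. The 6 flower markers summed to 8.60 to 19.8 RPKM in A. arenosa and 0.503 to 1.57 RPKM in A. thaliana. Most of the A. arenosa sum was SEP2 (8.29, 17.7 and 15.1 RPKM), and every other flower marker had at most 1.35 RPKM there. The 4 root markers stayed at or below 0.266 RPKM in both. In A. arenosa replicate 1, 59.6% of all RPKM fell on ribosomal RNA loci, whereas the other parental libraries had 0.233% to 2.56%. The replicates also differed in clock genes: CCA1, a morning-phased factor, had 0.349, 3.18 and 6.55 RPKM in F1 replicates 1, 2 and 3, 2.04 RPKM in F8 and 23.7 RPKM in A. suecica. It had 9.91, 4.73 and 8.56 RPKM in A. arenosa and 0.258, 7.23 and 24.5 RPKM in A. thaliana.

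P5CS1, the synthetase gene known to respond to stress and light, was high in A. suecica and in 1 A. thaliana library, and low elsewhere. It lies on chromosome 2 (16598072 to 16603319, minus strand, TAIR10.1). Its total was 12.5, 10.9 and 18.5 RPKM in F1 replicates 1, 2 and 3, 19.2 RPKM in F8 and 318.7 RPKM in A. suecica. The parental totals were 9.64, 16.2 and 12.1 RPKM in A. arenosa replicates 1, 2 and 3, and 3.30, 14.9 and 74.4 RPKM in A. thaliana replicates 1, 2 and 3. The A. suecica value was thus 4.29-fold above the highest other library and 22.8-fold above the F1 mean, while the F1 and A. arenosa ranges overlapped and both lay within the A. thaliana range.

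**Figure D1:**
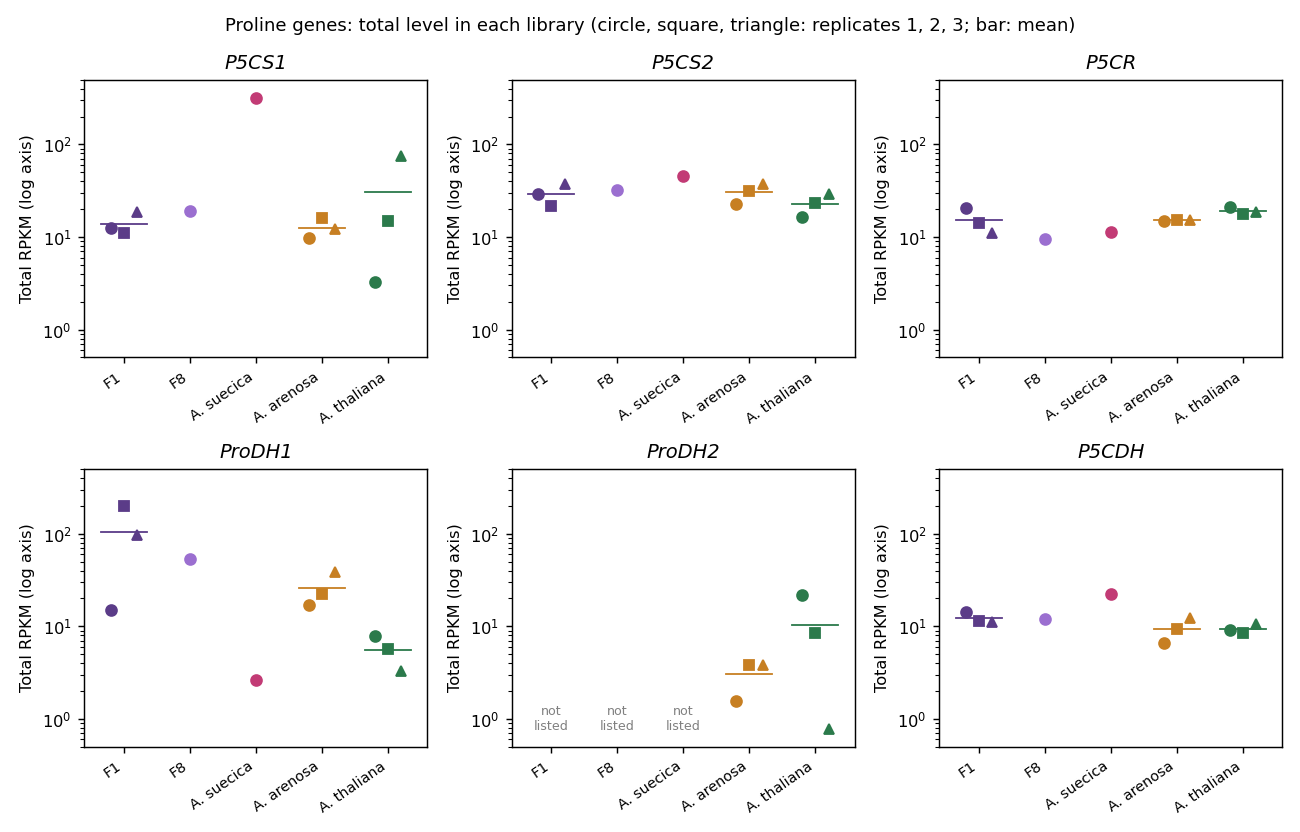
Total RPKM (log axis) of each member in each of the 11 libraries, by group, with F1, F8 and A. suecica left of A. arenosa and A. thaliana. Circles, squares and triangles are replicates 1, 2 and 3, and bars are group means. A. suecica holds the highest P5CS1 value (318.7 RPKM) and the lowest ProDH1 value (2.62 RPKM), and F1 replicate 2 the highest ProDH1 value (202.1 RPKM).

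The spread of P5CS1 among the A. thaliana columns was 22.5-fold, and only 54 of 10734 genes (0.503%) spread as widely on the log2(RPKM + 1) scale used throughout. In the same replicates 1, 2 and 3 the leaf markers summed to 6869, 19825 and 47569 RPKM, with the highest P5CS1, the highest leaf markers and the highest CCA1 in replicate 3. Their part in the spread was not tested. With that spread the parental log2 difference of P5CS1 (A. arenosa minus A. thaliana) was −0.37 (SE 0.94, 95% interval −2.59 to 1.86, limma, Benjamini-Hochberg adjusted p = 0.808), and without A. thaliana replicate 3 it was 0.69. The comparison could not show a parental difference in either direction.

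For the mid-parent value, log2(RPKM + 1) was averaged within each parent. Both averages were then turned back to RPKM + 1 and their mean was taken. This gave 14.3 RPKM for P5CS1, where a high single column weighs less than in a plain mean of RPKM. Against it, A. suecica P5CS1 differed by a log2 of 4.38, or 20.9-fold. Of 10438 genes, 3, P5CS1 included, lay at least as far out. A. suecica has 1 library and no replicate check, so this is a size without a test. Leaving out any 1 parental column kept the log2 size between 3.74 and 4.88. In the F1 the difference from mid-parent was −0.07 (SE 0.70, limma adjusted p = 0.970) and in F8 it was 0.40, which became −0.25 without A. thaliana replicate 1. These 3 comparisons share the parents' libraries.

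The A. thaliana allele carried most of the P5CS1 RNA in all 5 allotetraploid libraries. In the F1 the A. arenosa allele had 2.45, 3.71 and 7.73 RPKM and the A. thaliana allele 10.1, 7.22 and 10.7 RPKM in replicates 1, 2 and 3. The A. arenosa allele thus gave 19.5%, 33.9% and 41.8% of the RNA, and the log2 allele ratio (A. arenosa over A. thaliana) was −0.97 (SE 0.26, limma adjusted p = 0.0373), lower in 3 of 3 replicates. For 63.1% of 10223 genes the same allele was the higher one in every F1 replicate. The call was lost without F1 replicate 1 (−0.62, adjusted p = 0.0580) and without F1 replicate 2 (adjusted p = 0.0899). In F8 the A. arenosa allele had 6.63 RPKM and the A. thaliana allele 12.6 RPKM. In A. suecica the A. arenosa allele had 40.8 RPKM and the A. thaliana allele 277.9 RPKM, at a log2 ratio of −2.74, so both alleles stood above their F1 and F8 levels and the A. thaliana allele by more.

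**Figure D2:**
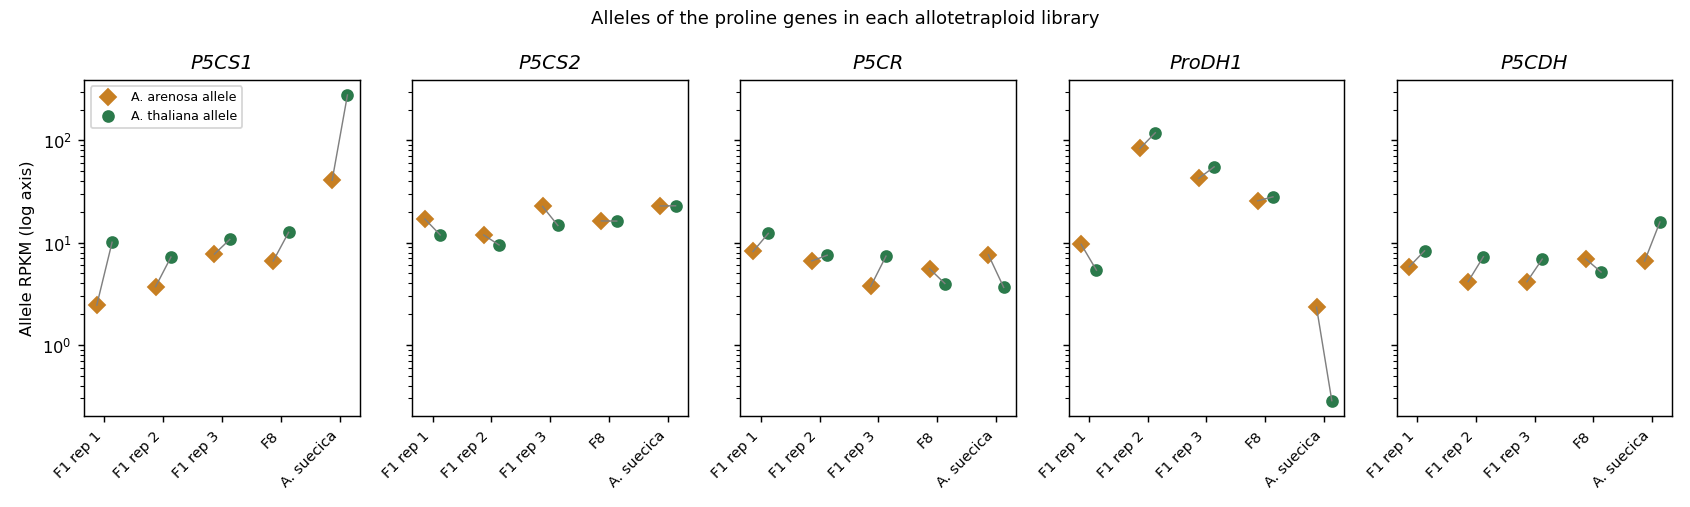
RPKM (log axis) of the A. arenosa allele and the A. thaliana allele of each listed member in the F1 replicates, F8 and A. suecica. Each pair of points joined by a line is 1 library. For P5CS1 the A. thaliana allele is the higher one in each library, with 277.9 against 40.8 RPKM in A. suecica.

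P5CS2, the synthetase gene known for housekeeping and growth-related proline synthesis, ranged from 16.3 to 45.8 RPKM over the 11 libraries. It lies on chromosome 3 (20624020 to 20629295, minus strand). Its totals were 28.9, 21.4 and 37.3 RPKM in the F1 replicates, 32.6 RPKM in F8 and 45.8 RPKM in A. suecica, beside 22.5, 31.4 and 37.5 RPKM in A. arenosa and 16.3, 23.1 and 29.1 RPKM in A. thaliana. All groups with replicates overlapped, and A. suecica was 1.22-fold above the highest other library. P5CS1 stood at 0.203 to 0.643 of P5CS2 per kilobase in 9 of the 11 libraries, and above P5CS2 in A. suecica (6.96-fold) and A. thaliana replicate 3 (2.55-fold). The spliced reference transcripts of this pair share no identical run of 60 bases, the shortest read length, and their longest shared run is 53 bases. No source used here says how reads with mismatches were assigned between them.

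In the tests P5CS2 did not pass in any comparison. The parental log2 difference was 0.40 (SE 0.30, limma adjusted p = 0.389) and the F1 allele ratio 0.46 (SE 0.15, adjusted p = 0.0698). The A. arenosa allele was the higher one in 3 of 3 F1 replicates, with 17.0, 11.9 and 22.6 RPKM, against 11.9, 9.49 and 14.7 RPKM for the A. thaliana allele. Such a constant order of the alleles held for 63.1% of 10223 genes. In F8 (16.3 and 16.3 RPKM) and A. suecica (22.9 and 22.9 RPKM) the A. arenosa and A. thaliana alleles were level. The difference from mid-parent was 0.13 in the F1, 0.31 in F8 and 0.79 in A. suecica.

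P5CR, the reductase that completes proline synthesis, had its lowest total in F8, while A. suecica lay just above the lowest F1 replicate. It lies on chromosome 5 (4785960 to 4787996, minus strand). Its totals were 20.5, 14.2 and 11.1 RPKM in the F1 replicates, 9.54 RPKM in F8 and 11.3 RPKM in A. suecica. The parents were tight, with 14.9, 15.4 and 15.1 RPKM in A. arenosa and 20.9, 17.6 and 18.7 RPKM in A. thaliana. The parental ranges did not overlap, which held for 38.9% of 12738 genes, and the log2 difference of −0.31 did not pass (SE 0.18, limma adjusted p = 0.276).

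The P5CR difference from mid-parent was −0.20 in the F1 (SE 0.19, limma adjusted p = 0.622), −0.78 in F8 and −0.56 in A. suecica. Rescaled to the same sum, F8 lay past 2-fold, at −1.13. The A. arenosa allele had 8.20, 6.63 and 3.73 RPKM in the F1 replicates, against 12.3, 7.53 and 7.38 RPKM for the A. thaliana allele. The log2 ratio of −0.51 did not pass (SE 0.18, adjusted p = 0.0847). In F8 the A. arenosa allele had 5.56 and the A. thaliana allele 3.98 RPKM, and in A. suecica 7.61 and 3.65 RPKM. The A. arenosa allele was thus the lower one in each F1 replicate and the higher one in F8 and A. suecica. A constant order over the F1 replicates was common, at 63.1% of 10223 genes.

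ProDH1, the main proline dehydrogenase gene, had the widest range of the members among F1 columns and the only parental call. It lies on chromosome 3 (12448636 to 12451556, minus strand). Its totals were 15.0, 202.1 and 97.6 RPKM in F1 replicates 1, 2 and 3, 53.7 RPKM in F8 and 2.62 RPKM in A. suecica. In A. arenosa it had 16.9, 22.3 and 38.4 RPKM in replicates 1, 2 and 3, and in A. thaliana 7.86, 5.68 and 3.28 RPKM. Each A. arenosa library lay above each A. thaliana library, and the parental ranges did not overlap in either direction for 38.9% of 12738 genes. A. suecica was the lowest of all 11. F1 replicate 1 lay just under the A. arenosa range, while F1 replicates 2 and 3 lay far above it.

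The parental log2 difference of ProDH1 was 2.01 (SE 0.38, limma adjusted p = 0.0139), or 4.02-fold higher in A. arenosa. It was the only 1 of the 6 members called, and 17.3% of the 12738 genes tested were called, 12.5% as higher and 4.78% as lower in A. arenosa. The call was lost when libraries were rescaled to the same sum (1.62, adjusted p = 0.0994), without A. arenosa replicate 2 (adjusted p = 0.0570) and without A. thaliana replicate 2 (adjusted p = 0.0528). The log2 difference stayed between 1.69 and 2.26 over the columns left out in turn.

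In the F1 the ProDH1 total spread 13.5-fold between columns, and 13 of 10223 genes (0.127%) spread as widely. Both alleles moved together: the A. arenosa allele had 9.64, 83.4 and 42.5 RPKM and the A. thaliana allele 5.38, 118.7 and 55.1 RPKM in replicates 1, 2 and 3. The log2 allele ratio was −0.04 (SE 0.27, 95% interval −0.69 to 0.61, limma adjusted p = 0.917). The A. arenosa allele was the higher one in replicate 1 and the lower one in replicates 2 and 3. F1 replicate 1, the low one, also had the lowest CCA1 and the lowest leaf marker sum (6001 RPKM) of the F1 columns, and the part of these in the ProDH1 level was not tested.

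The F1 total of ProDH1 lay above mid-parent by a log2 of 2.11 (SE 0.71), or 4.31-fold, and did not pass (unadjusted p = 0.0150, limma adjusted p = 0.192). Only 26 of 10421 genes (0.249%) lay at least as far out. The size turned on single F1 columns: it was 3.16 with a call without F1 replicate 1 (adjusted p = 0.0412), 1.32 without F1 replicate 2 (adjusted p = 0.491) and 1.84 without F1 replicate 3 (adjusted p = 0.402). The trans term measures the part of the parental difference that the alleles do not keep in a shared cell, and is the log2 difference of the parents less the F1 log2 ratio. It was 2.05 (SE 0.46, unadjusted p = 0.000647, adjusted p = 0.0557). It passed without F1 replicate 1 (adjusted p = 0.0237), without A. arenosa replicate 1 (adjusted p = 0.0424) or without A. thaliana replicate 3 (adjusted p = 0.0298). Over all columns left out in turn its adjusted p ran up to 0.190, without A. arenosa replicate 2, and it was 0.226 with libraries rescaled to the same sum (1.65).

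F8 and A. suecica lay on opposite sides of the mid-parent value for ProDH1. The log2 difference was 1.78 in F8, or 3.44-fold higher, and −2.13 in A. suecica, or 0.228 of mid-parent, both as ratios of RPKM + 1. The A. suecica level was 2.62 RPKM, against a mid-parent value of 14.9 RPKM. Both sizes stayed past 2-fold when any 1 parental column was left out, between 1.58 and 2.03 in F8 and between −2.34 and −1.89 in A. suecica. In F8 the A. arenosa allele had 25.7 RPKM and the A. thaliana allele 28.0 RPKM. In A. suecica they had 2.34 RPKM (A. arenosa) and 0.285 RPKM (A. thaliana), under the 5 RPKM total needed for an allele comparison.

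**Figure D3:**
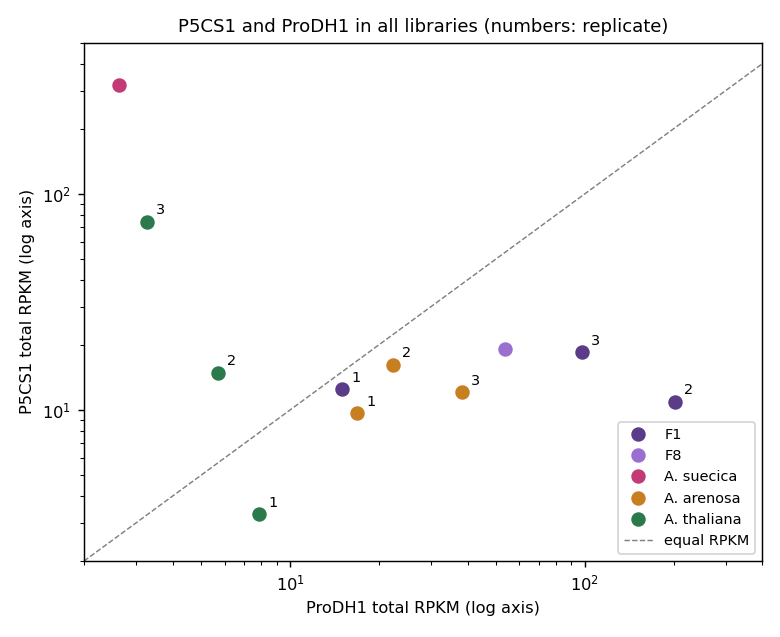
Total RPKM of P5CS1 against total RPKM of ProDH1 (both log axes), 1 point per library, coloured by group and numbered by replicate, with a dashed line at equal levels. A. suecica lies farthest above the line, with A. thaliana replicate 3 next, and F1 replicate 2 farthest below it.

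ProDH2, the second proline dehydrogenase gene, was measured in the parents alone. It lies on chromosome 5 (15501126 to 15504269, plus strand). It had 1.55, 3.87 and 3.86 RPKM in A. arenosa and 21.7, 8.58 and 0.783 RPKM in A. thaliana. The groups overlapped because A. thaliana replicate 3 was the lowest of all 6 libraries, a 27.7-fold spread matched by 0.950% of genes. Its log2 difference was −0.90 (SE 0.87, limma adjusted p = 0.506), and −1.91 (adjusted p = 0.0283) without A. thaliana replicate 3. The gene passed the 5 RPKM filter only through A. thaliana, where it was high, so that p is not read as a call. Among the A. thaliana columns, replicate 3 was thus the highest for P5CS1 and the lowest for both dehydrogenase genes. ProDH1 and ProDH2 reference transcripts share no run longer than 17 identical bases.

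P5CDH, the dehydrogenase that completes degradation, lay in a narrow band except in A. suecica. It lies on chromosome 5 (25099003 to 25103312, minus strand) and is annotated as ALDH12A1. Its totals were 14.1, 11.4 and 11.0 RPKM in the F1 replicates, 12.1 RPKM in F8 and 22.5 RPKM in A. suecica, beside 6.63, 9.35 and 12.2 RPKM in A. arenosa and 9.20, 8.41 and 10.5 RPKM in A. thaliana. The parental log2 difference was −0.02 (SE 0.25, 95% interval −0.61 to 0.56, limma adjusted p = 0.951). The difference from mid-parent was 0.36 in the F1 (SE 0.19, adjusted p = 0.355), 0.35 in F8 and 1.20 in A. suecica, the last of which was 0.79, under 2-fold, with libraries rescaled to the same sum.

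The A. arenosa allele of P5CDH had 5.81, 4.15 and 4.15 RPKM in the F1 replicates, against 8.32, 7.28 and 6.89 RPKM for the A. thaliana allele. The log2 ratio was −0.58 (SE 0.15, limma adjusted p = 0.0353). The A. arenosa allele was lower in 3 of 3 replicates, and 63.1% of 10223 genes had the same allele higher in every F1 replicate. The call was lost without F1 replicate 2 (adjusted p = 0.223) and without F1 replicate 3 (adjusted p = 0.0962). F8 went the other way, with 6.92 RPKM for the A. arenosa allele and 5.15 RPKM for that of A. thaliana. In A. suecica the A. arenosa allele had 6.60 RPKM and the A. thaliana allele 15.9 RPKM, at a log2 ratio of −1.15.

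Set side by side, the members' counts were close to the background in most comparisons. In the F1 allele ratio, 2 of 5 members (P5CS1 and P5CDH) were called, both lower for the A. arenosa allele, where 30.7% of 10223 genes were called, 18.9% as higher and 11.7% as lower. The same allele was the higher one in all 3 replicates for 4 of the 5 members, and for 63.1% of all genes. No member was called by limma in the difference of the F1 from mid-parent (0.106% of 10421 genes called) or in the trans term (0.854% called, 0.537% as higher and 0.317% as lower). In each of these 1 of the 5, ProDH1, had an unadjusted p below 0.05. The share of all genes below that unadjusted threshold was not counted, and the called shares are no measure for it. Past 2-fold from mid-parent were 1 of 5 members in F8 (ProDH1), where 10.9% of 10268 genes were, 6.73% as higher and 4.21% as lower, and 3 of 5 in A. suecica (P5CS1, P5CDH and ProDH1), where 20.3% of 10438 genes were, 15.3% as higher and 5% as lower. Of the allele ratios, 0 of 5 in F8 lay past 2-fold (19.2% of 9674 genes, 7.68% as lower), and 2 of 4 in A. suecica, P5CS1 and P5CDH (24.2% of 9968 genes), both of them lower for the A. arenosa allele, as were 11.3% of genes.

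The medians over all genes give the scale of these values. All genes had a median log2 difference of 0.31 between the parents, 0.17 for the F1, 0.19 for F8 and 0.38 for A. suecica against mid-parent. In A. suecica, 3 of the 5 members (P5CS1, P5CS2 and P5CDH) lay above all other libraries, as did 32.8% of 9922 genes, and ProDH1 lay below all others, as did 7.71% of genes. A place above all other libraries was thus common in A. suecica. In F8, none of the 5 members lay above all other libraries, as 9.85% of genes did, and P5CR lay below all others, as 6.06% did.

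**Figure D4:**
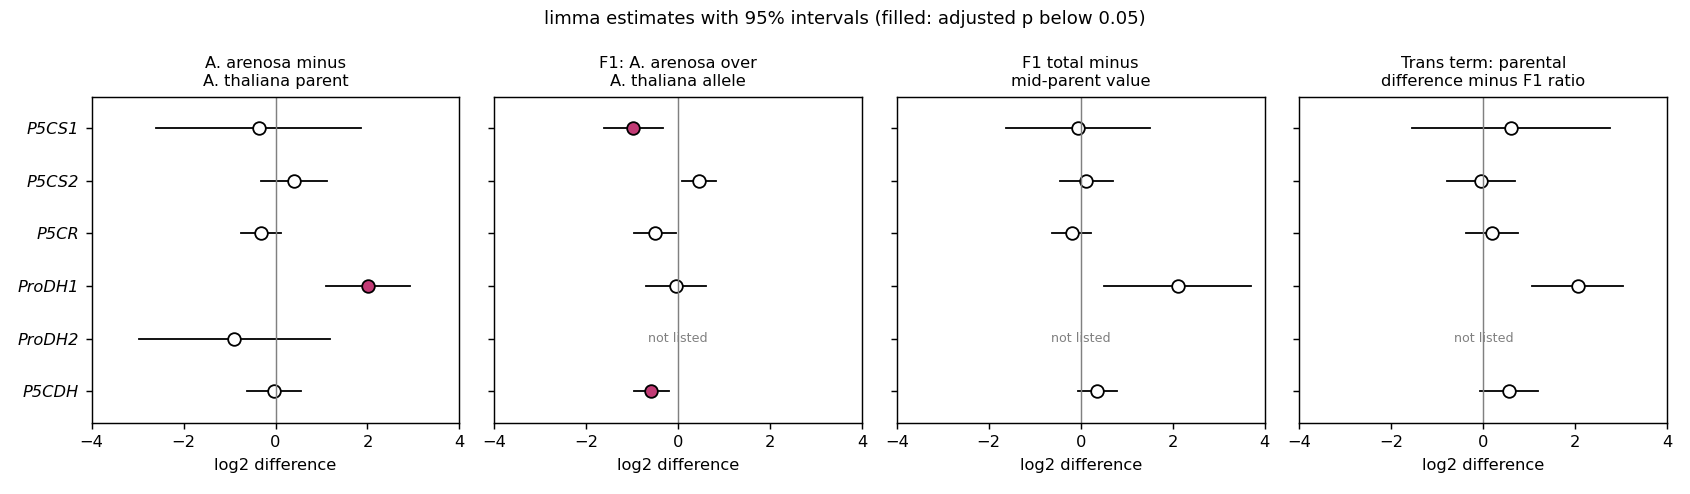
Log2 differences of the members in the 4 tested comparisons (parental difference, F1 allele ratio, F1 minus mid-parent, trans term), with 95% intervals as lines and filled points for an adjusted p below 0.05. ProDH1 is filled in the parental panel (2.01), and P5CS1 (−0.97) and P5CDH (−0.58) in the allele panel.

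The balance of the stress-linked synthesis gene against the main degradation gene ran over several orders of magnitude. Per kilobase, P5CS1 stood to ProDH1 as 0.835, 0.0541 and 0.189 in F1 replicates 1, 2 and 3, as 0.358 in F8 and as 121.6 in A. suecica. In A. arenosa the ratio was 0.570, 0.726 and 0.315, and in A. thaliana 0.420, 2.62 and 22.7. P5CS1 was the higher one in A. suecica and in A. thaliana replicates 2 and 3, and ProDH1 in the other 8 libraries. A. suecica and A. thaliana replicate 3, the libraries with the largest ratios, also had the highest CCA1 levels (23.7 and 24.5 RPKM) and low levels of TOC1, an evening-phased clock gene (9.94 and 7.12 RPKM). A. arenosa replicate 1 had a lower TOC1 still (6.86 RPKM), with the next highest CCA1 (9.91 RPKM), at a P5CS1 to ProDH1 ratio of 0.570. No source used here gives the time of collection, and its part in these ratios was not tested.

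Genes around the pathway were read from lists of proline, arginine and glutamate metabolism and transport. Between the parents, 1 of 9 tested members passed the threshold as higher in A. arenosa, the amino acid permease AAP6 (log2 difference 1.54, limma adjusted p = 0.0355). The proline transporter PROT1 (−1.11, adjusted p = 0.00882) passed it as lower, 1 of 9. Over all genes 12.5% were called as higher and 4.78% as lower. PROT1 had 3.56, 3.65 and 4.70 RPKM in A. arenosa and 10.1, 9.29 and 9.66 RPKM in A. thaliana. It passed the filter only through A. thaliana, where it was high, so its parental p is not read as a call. The F1 alleles were called in the same directions, at 1.10 for AAP6 (adjusted p = 0.00595) and −1.15 for PROT1 (adjusted p = 0.0322). In A. suecica, 3 of 10 lay more than 2-fold above mid-parent, as did 15.3% of all genes. They were the permease AAP1 (1.75), the arginase ARGAH1 (1.39) and PROT1 (1.28), at sizes not rescaled to the same sum. OAT, the ornithine aminotransferase that feeds P5C from arginine, had 20.5 RPKM in A. suecica, against 12.0 to 14.1 RPKM in A. arenosa and 11.4 to 14.3 RPKM in A. thaliana, a log2 of 0.65 from mid-parent. In F8, 2 of 9 lay past 2-fold, both higher, the arginase ARGAH2 (1.28) and the glutamate dehydrogenase GDH2 (1.08), where 6.73% of all genes were.

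GDH2, which releases 2-oxoglutarate from glutamate, followed ProDH1 most closely of the genes on the lists. It had 26.0, 70.8 and 49.5 RPKM in the F1 replicates, 26.1 RPKM in F8 and 5.57 RPKM in A. suecica, beside 8.48, 16.9 and 28.4 RPKM in A. arenosa and 6.97, 9.09 and 6.53 RPKM in A. thaliana. Spearman's rho with ProDH1 over the 11 libraries was 0.93. The log2 difference of GDH2 from mid-parent was 1.85 in the F1 and did not pass (limma adjusted p = 0.0915), and it was −0.96 in A. suecica.

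Of the C and S1 bZIP factors, the group known to act on the ACTCAT element, 7 of 9 were tested between the parents. There limma called none of them, beside 17.3% of all genes. An unadjusted p below 0.05 was held by 1 of them, with no share of all genes counted at that threshold. In the F1 alleles 1 of 5 was called, bZIP53 with a lower A. arenosa allele (−0.83, limma adjusted p = 0.0214), beside 11.7% of all genes called lower. bZIP63 had 7.75, 27.6 and 26.7 RPKM in the F1 replicates, 20.7 RPKM in F8 and 2.96 RPKM in A. suecica, beside 10.1, 11.1 and 13.7 RPKM in A. arenosa and 3.58, 9.34 and 12.5 RPKM in A. thaliana. It was the only 1 of 5 past 2-fold in F8 (1.04, beside 6.73% of all genes higher) and in A. suecica (−1.42, beside 5% lower).

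Genes known to respond to water deficit and abscisic acid were mostly high in A. suecica when set against mid-parent. Against mid-parent, 6 of 7 listed members lay more than 2-fold higher in A. suecica: COR15A (2.92), RD20 (2.52), ABI2 (1.90), NCED3 (1.48), RAB18 (1.37) and ABI1 (1.34). The median of the list was 1.48, against 0.38 over all genes, and 15.3% of all genes lay past 2-fold higher. These sizes were taken without rescaling libraries to the same sum. The RPKM sum over shared transcripts, without ribosomal RNA loci, was largest in A. suecica (728101, against 328447 to 725891 in the other libraries). RD29A, which responds to both cold and drought, was at 0.35. Beside the F1 columns, A. suecica NCED3 (20.9 RPKM) lay under F1 replicates 2 and 3 (22.4 and 27.3 RPKM). RD29A (58.9 RPKM) also lay under these 2 replicates (254 and 289 RPKM). COR15A, RD20, ABI2, RAB18 and ABI1 lay above every F1 column. In F8, 3 of 7 lay past 2-fold, RD29A (2.53), RD20 (1.66) and COR15A (1.18), all higher as were 6.73% of all genes, while P5CS1 was at 0.40 there. NCED3 encodes a rate-limiting enzyme of abscisic acid synthesis, and ABI1 and ABI2 are phosphatases that restrain abscisic acid signalling.

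**Figure D5:**
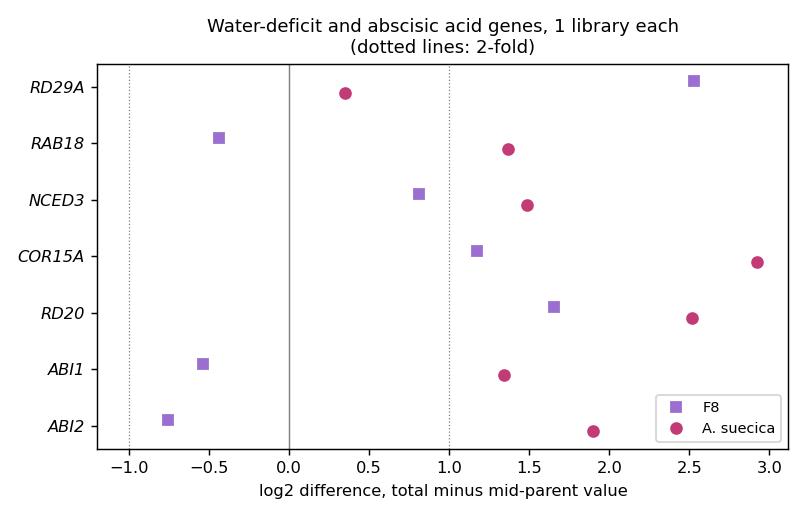
Log2 difference from mid-parent (horizontal axis) of the 7 listed water-deficit and abscisic acid genes in F8 (squares) and A. suecica (circles), 1 library each, with dotted lines at 2-fold. In A. suecica 6 of the 7 lie past 2-fold, with RD29A at 0.35.

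Between the parents, 2 of the 9 water-deficit genes passed the threshold as higher in A. arenosa, as did 12.5% of all genes. They were RD20 (log2 difference 2.99, limma adjusted p = 0.00874) and RD29B (2.93, adjusted p = 0.0339). RD29B had 2.47, 25.3 and 15.0 RPKM in A. arenosa and 0.581, 0.783 and 0.179 RPKM in A. thaliana. It passed the 5 RPKM filter only through A. arenosa, where it was high, so its p is not read as a call. In the F1 alleles limma called 3 of 6 with a higher A. arenosa allele, RD20 (2.55), RD29A (1.16) and NCED3 (0.99), and 1 with a lower one, ABI1 (−0.68). RAB18 (0.87, limma adjusted p = 0.0600) and COR15A (0.05) were not called. Over all genes 18.9% were called as higher and 11.7% as lower. In the F1 against mid-parent limma called none of 7. An unadjusted p below 0.05 was held by 1 of them, with no share of all genes counted at that threshold. Of the dark and sugar-starvation genes, limma called none of 3 between the parents, in the F1 alleles or in the F1 against mid-parent. Over all genes, 17.3%, 30.7% and 0.106% were called there. In these comparisons 1, 2 and 2 of the 3 had an unadjusted p below 0.05, a threshold at which the share of all genes was not counted. In F8, 1 of 3 lay past 2-fold higher, the raffinose synthase DIN10 (2.44), beside 6.73% of all genes. DIN10 had 38.4, 239 and 230 RPKM in the F1 replicates and 123 RPKM in F8, beside 4.41 to 60.3 RPKM in A. arenosa and 12.0 to 44.0 RPKM in A. thaliana, and was not listed in A. suecica. Of the clock genes, 5 of 6 lay past 2-fold from mid-parent in F8, 4 higher and 1 lower, beside 6.73% and 4.21% of all genes. In A. suecica 3 of 5 did, all higher, beside 15.3% of all genes.

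The genes most like each member in order over the 11 libraries were picked by Spearman's rho among 9922 genes. With so many genes and so few libraries, several of them from 1 group, high values are found for any gene, and these are descriptions. For P5CS1 they were CA2 (0.95), a carbonic anhydrase, GS2 (0.93), the chloroplast glutamine synthetase, and AT2G25920 (0.92). For P5CS2 they were OVA2 (0.97), WRKY20 (0.95) and AT3G58560 (0.94), and for P5CR AT5G03350 (0.87), OBP2 (0.85) and AT1G55210 (0.84). For ProDH1 they were PYL4 (0.97), an abscisic acid receptor, RABA5E (0.95) and AT1G72416 (0.95), and for P5CDH HIT1 (0.99), GSK1 (0.96) and AST56 (0.96). Among the members, P5CS1 had a rho of 0.73 with P5CS2 and −0.28 with ProDH1.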

How the data were processed

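Leaf mRNA-seq values of 5 tetraploid groups were used as deposited. The authors deposited RPKM per transcript for the parents and RPKM per allele for the allotetraploids, per the file headers, with reads placed on TAIR 9, per the submitters' processing notes. No source used here gives the aligner, the division of reads between alleles or the library depths. In the 6 parental libraries, low values lay within 0.02 of a whole multiple of the commonest step in only 5.71% to 26.1% of cases, so counts could not be recovered there; the allotetraploid libraries were not checked.

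Alleles were summed to totals. Each gene was represented by 1 transcript, among those listed in all tables the one with the highest mean, and 7 ribosomal RNA loci were left out. Values were compared as log2(RPKM + 1), which understates changes at low levels, where the largest group mean, or for an allele ratio the total, reached 5 RPKM. limma 3.58.1 in R 4.3.3 (trend) was run over all genes, with Benjamini-Hochberg adjusted p below 0.05 as a call. The mid-parent value used the delta method and the trans term a Welch-Satterthwaite combination. F8 and A. suecica, with 1 library each, were given as sizes past 2-fold. Each fold given beside a log2 difference is a ratio of RPKM + 1 values. The tests were tried on simulated data. The allele letters in the headers were checked against the parents: of 1028 genes called between the parents, 955 (92.9%) had an F1 allele ratio of the same sign. Alternatives were another pseudocount and filter, other transcripts and scalings, other variance settings, a replicate block, and leaving out each column. Members, lists and tests were chosen with earlier results of these data known. Named genes are the members, the 3 genes most like each, and list members past a threshold (at most 6 per list and comparison). OAT, GDH2, bZIP63, DIN10, RD29A, NCED3 and clock genes are also given by level, chosen after their values were seen. Gene positions and sequences are from RefSeq TAIR10.1, matched by locus identifier for 6 of 6 members. Python 3.11.15 with pandas 2.3.3, numpy 2.4.6, scipy 1.17.1 and matplotlib 3.10.9 did the rest.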

Additional observations from a re-analysis of the deposited data

Results flagged for a closer look

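4 allele ratios of single libraries lay on the other side of 0 from all 3 F1 replicates, and in each case the difference was not tested. P5CR had a log2 allele ratio (A. arenosa over A. thaliana) of 0.40 in F8 and 0.89 in A. suecica, against −0.53, −0.16 and −0.82 in the F1 replicates. P5CDH had 0.36 in F8, against −0.45, −0.68 and −0.62 in the F1 replicates. P5CS2 had −0.0047 in A. suecica, which is level, against 0.48, 0.30 and 0.59 in the F1 replicates.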

How the results depend on the processing

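Of 436 values of single members under the planned and added alternatives, 18 changed sign, none of them past the test's threshold before or after; 8 others lost a call and 5 gained one. Sign changes of tested values came with 1 column left out for the parental difference of P5CS1 (−1.37 to 0.69) and P5CDH (−0.22 to 0.18), the F1 allele ratio of ProDH1 (−0.43 to 0.19), the F1 against mid-parent for P5CS1 (−0.71 to 0.44) and P5CS2 (−0.063 to 0.32), and the trans term of P5CS1 (−0.40 to 1.67) and P5CS2 (−0.26 to 0.15). Against mid-parent, F1 P5CS1 was 0.0085 when rescaled and P5CS2 −0.046 when centred on the median, and the trans term of P5CR was −0.19 when rescaled. In F8, P5CS1 changed sign without A. thaliana replicate 1 (−0.25) and P5CS2 when rescaled (−0.0068). The cause of the changes below was not tested unless stated. For the parental difference, members called numbered 0 in place of 1 when rescaled to the same sum and under the replicate block (ProDH1 adjusted p = 0.0508), and ranged from 0 to 2 with 1 column left out. All genes called higher numbered 2993 with no filter, 654 when rescaled and 945 when centred on the median, and 721 to 2860 with 1 column left out (1590 as reported). Those called lower numbered 1151 with no filter, 991 at a mean of at least 1 RPKM and 973 when centred, and 297 to 994 with 1 column left out (609 as reported). In the F1 allele ratio, members called ranged from 0 to 1, genes called higher from 753 to 1836 and lower from 352 to 1199 with 1 column left out, with fewer samples in each. For the F1 against mid-parent, members called ranged from 0 to 1 with 1 column left out, genes called lower from 0 to 3 and higher from 0 to 23 (11 as reported). Genes called higher numbered 6 at a pseudocount of 0.1, 5 with the first transcript, 3 when rescaled, 6 without trend, 18 under the replicate block, 4 when centred and 51 with a log2-scale mid-parent. In the trans term, members called ranged from 0 to 1, genes called higher from 4 to 813 and lower from 8 to 200 with 1 column left out. Rescaled, 11 were higher and 78 lower, and 117 were higher under the replicate block, against 56 and 33 as reported. Past 2-fold from mid-parent, F8 had 2 members, 267 genes higher and 796 lower when rescaled, and 456 to 989 higher with 1 parental column left out, an alternative chosen after seeing the data. A. suecica had 567 higher and 1000 lower when rescaled. Same-numbered columns' deviations from their group means correlated at 0.01, −0.10 and 0.13 between A. arenosa and A. thaliana, at 0.54, −0.26 and 0.24 between F1 and A. thaliana, and at 0.27, 0.31 and 0.30 between F1 and A. arenosa. In that last pair of groups 6 of 6 columns correlated best with their own number, a hint from the data and not from the labels, and in the others 2 and 3 of 6. Not every pair passed 0.1 in any comparison with A. thaliana, so the block stands only here, and it changed no member's call other than ProDH1 between the parents. The F1 allele ratio, taken within a replicate, allows no block. Depth is unknown and limits what can be said of low values such as ProDH1 in A. suecica.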
